A study of Mus musculus with 21 samples.

Results

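*Irx2*, *Onecut3* and *Zfp503* are genes of developmental regulators at which DNA methylation differed between intestinal adenoma and normal intestine of the mouse. Their members are the listed windows and merged regions that overlap the mm9 body of one of the 3 genes or 10000 bp on either side of it. By this rule 17 of 17690 listed windows were members, 7 at *Irx2*, 7 at *Onecut3* and 3 at *Zfp503*. They form 7 of 13980 merged regions. All 17 windows belong to the 6123 windows listed as hypermethylated in adenoma, and none to the hypomethylated ones. The windows had been selected on the MeDIP signal, since they were listed because adenoma and normal intestine differed in these same samples, so every difference between the 2 tissues is given here as a description with no test.

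The samples had been analysed by MeDIP-seq, in which DNA fragments are enriched with an antibody against 5-methylcytidine and then sequenced. All mice were C57BL/6J males of 15 to 19 weeks, and all samples were ileum. Normal intestine came from 3 wild type mice (Apc-+/+, B1 to B3, called B6) and from 3 Apc-Min/+ mice (N4 to N6, called APCMin). The 5 adenomas (Ad4, Ad4-1, Ad5, Ad6 and Ad7) came from 4 Apc-Min/+ mice, and animals 4, 5 and 6 gave both tissues, with 2 adenomas from animal 4. These mice carry a germline mutation of the tumor suppressor gene *Apc* in every cell, so that the normal APCMin samples carry it too, and adenoma tissue is a mixture of tumor and other cells. A higher share of methylated cells and more methylation per cell cannot be told apart in such bulk samples.

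*Irx2* encodes a homeobox transcription factor of the Iroquois family, which patterns the nervous system, heart and limbs, and lies in a cluster with *Irx1* and *Irx4*. *Onecut3* encodes a transcription factor with a cut domain and a homeobox, a relative of the liver and pancreas regulators *Onecut1* and *Onecut2*. *Zfp503*, also called *Nolz1*, encodes a zinc finger protein of the family of *Zfp703* that acts as a transcriptional repressor in the developing brain and limb. CpG islands, stretches rich in CpG sites, are mostly unmethylated in normal tissue, and many of those at developmental regulators gain methylation in tumors. The MeDIP signal rises with the number of methylated CpG sites in a fragment, so that it depends on CpG density as well as on methylation.

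Each gene had one region with the highest ratio of adenoma over normal intestine. The following stretches of 240 bases show the reference sequence of mm9 in that region, on the coding strand of the gene and outside untranslated regions, where the CpG sites (in capitals) were densest. They show how many sites an antibody can bind in a single fragment. The *Irx2* stretch, at chr13:72768830-72769069 on the plus strand, holds 31 CpG sites and a GC content of 72.9%. The *Onecut3* stretch, at chr10:79965625-79965864 on the plus strand, holds 17 sites with 67.9% GC. The *Zfp503* stretch, at chr14:22804463-22804702 on the minus strand, holds 24 sites with 66.3% GC.
Irx2: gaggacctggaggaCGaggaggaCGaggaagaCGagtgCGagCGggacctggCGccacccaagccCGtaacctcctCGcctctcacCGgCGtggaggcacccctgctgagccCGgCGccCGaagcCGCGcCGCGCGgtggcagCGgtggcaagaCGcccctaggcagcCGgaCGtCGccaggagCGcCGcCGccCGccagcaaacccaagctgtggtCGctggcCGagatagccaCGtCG
Onecut3: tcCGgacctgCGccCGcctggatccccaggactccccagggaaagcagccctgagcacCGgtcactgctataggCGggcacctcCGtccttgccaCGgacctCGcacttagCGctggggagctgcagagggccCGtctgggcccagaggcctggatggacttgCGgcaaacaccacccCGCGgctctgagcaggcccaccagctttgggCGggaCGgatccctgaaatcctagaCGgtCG
Zfp503: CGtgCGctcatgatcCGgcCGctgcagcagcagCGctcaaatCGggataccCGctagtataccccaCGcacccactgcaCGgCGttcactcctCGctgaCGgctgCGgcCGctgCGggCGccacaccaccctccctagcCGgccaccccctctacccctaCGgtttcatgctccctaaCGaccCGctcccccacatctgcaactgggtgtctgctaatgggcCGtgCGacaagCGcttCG

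The study designed bisulfite PCR assays in the same places. Its 7 primer pairs for the 3 genes were matched here to mm9 with every C read as T, within the gene and 20000 bp on either side. Each pair matched 1 site there without a mismatch, and the rest of the genome was not searched. The amplicons were 237 to 416 bp long and held 6 to 27 CpG sites. Each of them overlapped at least 1 listed window, and 6 of 7 overlapped the region with the highest ratio of its gene. The pairs shown are the one of each gene that covers most of the stretch above. The *Irx2* pair spans chr13:72768810-72769046, the *Onecut3* pair chr10:79965655-79965902 and the *Zfp503* pair chr14:22804485-22804798 on the minus strand. The bases are printed as ordered, in lower case, so that a t in a forward primer can stand for a genomic C.
Irx2 forward: tagagtgtaaggataagtttga
Irx2 reverse: accacaacttaaatttactaac
Onecut3 forward: attttttagggaaagtagttttgag
Onecut3 reverse: aaaaccctacaaactctctttca
Zfp503 forward: ttttattagtgatgatagttagtttgtg
Zfp503 reverse: attaacaaacacccaattacaaata

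By contrast, the primer pairs for chromatin immunoprecipitation of the histone mark H3K27me3, which Polycomb proteins place on silent developmental genes, lay outside all listed windows. The *Irx2* pair matched chr13:72768087-72768191, from 1842 to 1946 bp downstream of the transcription start and between listed windows. It ends close to a listed region that begins at chr13:72768251, so that fragments of sheared chromatin can span both. The *Onecut3* pair matched chr10:79960390-79960490, from 2739 to 2839 bp downstream of the start, in the intron. No value of the bisulfite or chromatin assays was used here.
Irx2 H3K27me3 forward: ggcctatccataccagctca
Irx2 H3K27me3 reverse: tacgggttctttcggtgttc
Onecut3 H3K27me3 forward: gagccctgttgctagtgagg
Onecut3 H3K27me3 reverse: gcacactacccgaggagaac

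Values are in rpm, the mean read coverage of a 500 bp window per 1000000 uniquely aligned reads of the library. MeDIP libraries held 13878615 to 26297510 such reads. With reads extended to 300 bases, 0.5 rpm stands for 11.6 to 21.9 fragments in a window and a relative counting SD of 21.4% to 29.4%, and 2 rpm for 46.3 to 87.7 fragments and 10.7% to 14.7%. These errors cover counting only. Neighbouring windows start 250 bp apart and share sequence and fragments, so they are not independent of each other. Log2 ratios compare the mean of the 5 adenomas with the mean of the 6 normal samples after 0.05 rpm was added to both.

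Listed windows covered only part of each gene and its flanks. The share of listed windows over the whole genome was not computed, so these shares are not called low or high. Over all protein-coding genes 1.88% had 3 or more hypermethylated windows, as each of these 3 genes had. Of 104 windows that tile *Irx2* and its flanks 6.73% were listed, of 172 at *Onecut3* 4.07%, and of 105 at *Zfp503* 2.86%. Windows between them are not analysed here. No window overlapped the promoters, taken as 1000 bp upstream to 500 bp downstream of the 5' end of each gene. These held 143 CpG sites at *Irx2*, 78 at *Onecut3* and 66 at *Zfp503*. In the study's counts most hypermethylated regions lie outside promoters, so nothing is read from this absence. Starts of other transcripts within the genes were not checked. Of the 17 windows, 16 lay within a gene body. The one outside it was upstream of *Irx2*. The nearest hypomethylated window lay 924 kb from *Irx2*, 134 kb from *Onecut3* and 200.2 kb from *Zfp503*. The nearest hypermethylated windows that the rule left out began 12.7 kb from *Onecut3*, with a mean adenoma value of 0.330 rpm against 0.168 rpm for normal samples, 40.4 kb from *Zfp503* and 628 kb from *Irx2*. Just inside the listing limit on the ratio, *Irx2* window 2 had the lowest ratio of the members, 1.42.

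**Figure D1:**
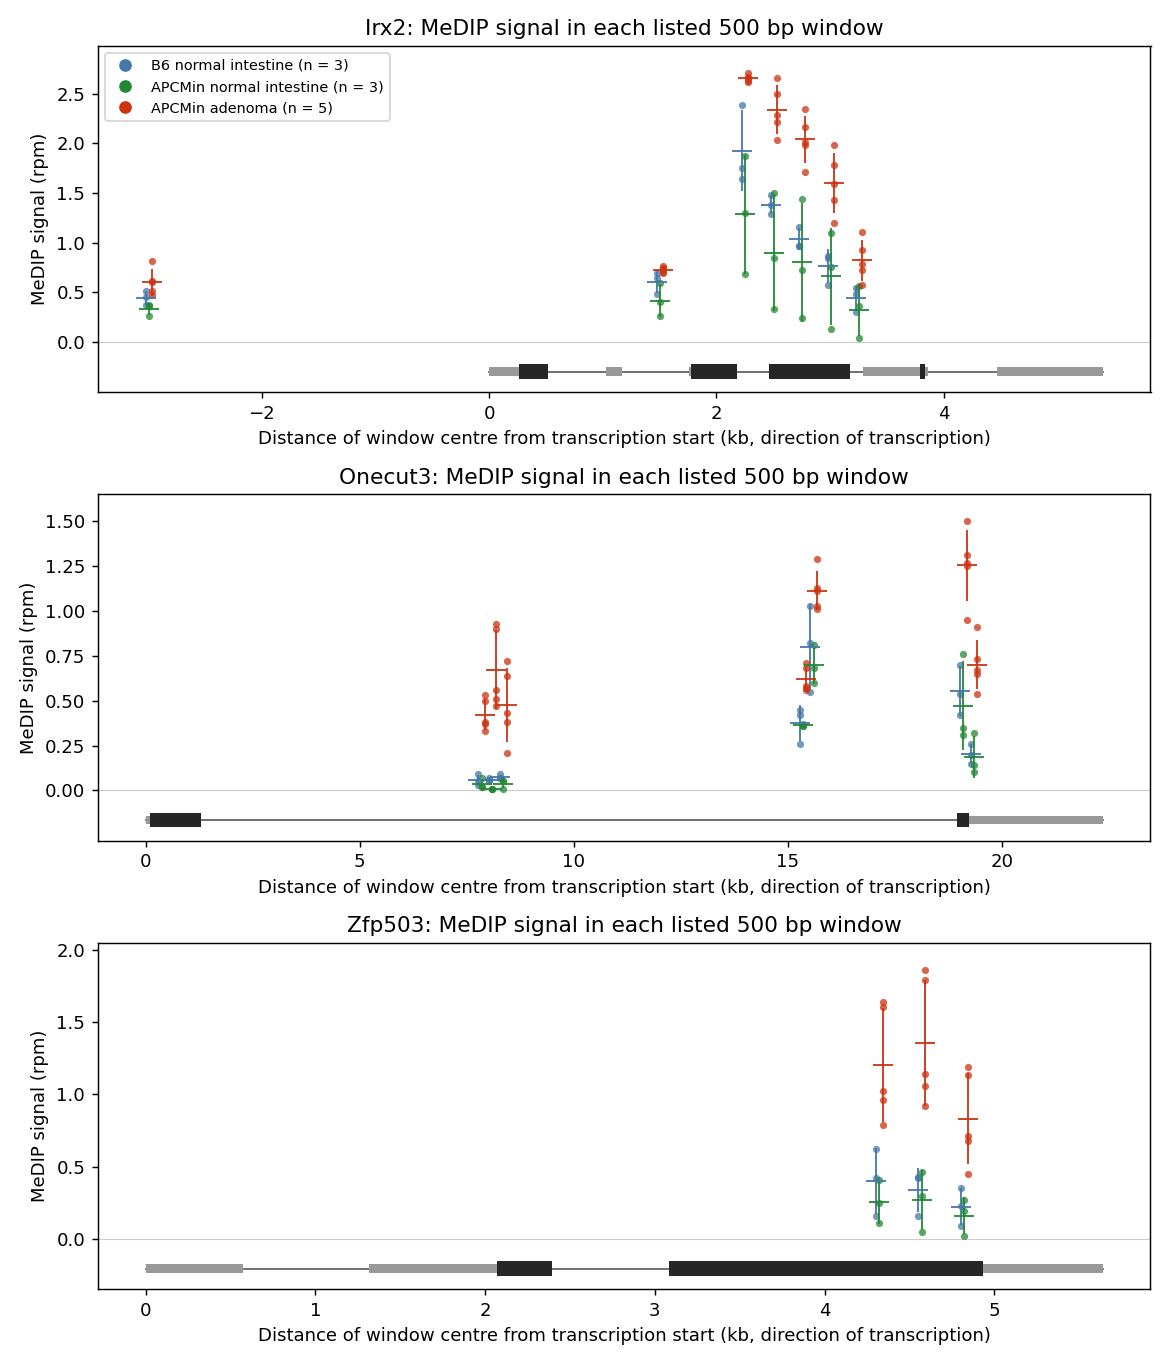
MeDIP signal in rpm (vertical axis) of each sample in the 17 listed windows of Irx2, Onecut3 and Zfp503, plotted at the distance of the window's centre from the transcription start in kb (horizontal axis, groups set slightly apart). Points are samples, crosses show mean ± SD of 3 B6 normal, 3 APCMin normal and 5 adenoma samples, and the bar below zero shows exons (grey) and coding sequence (black). Among the listed windows, adenoma values are highest in the middle or 3' part of each gene. No listed window lies at the 5' end of a gene, and windows that were not listed are not shown.

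The *Irx2* gene (ENSMUSG00000001504, chr13:72766245-72771644, plus strand) carried a continuous block of 5 overlapping windows. This block, chr13:72768251-72769750, covers 2006 to 3505 bp downstream of the transcription start and spans coding exons, the intron between them and sequence that other transcripts use as untranslated region. It is 1500 bp long and holds 106 CpG sites, and 1391 of its bases lie in a CpG island called from the sequence. Of the 5135 hypermethylated regions only 6, this one included, were at least as long.

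Within the block the signal was highest in the first window and fell towards the 3' end of the gene in both tissues. In window 3, chr13:72768251-72768750, the B6 samples had 1.75, 2.39 and 1.64 rpm, the APCMin normal samples 1.3, 0.68 and 1.87 rpm, and the adenomas 2.66, 2.62, 2.63, 2.67 and 2.71 rpm. All adenomas lay above all normal samples, and B2 and N6 were the closest of the normal ones. The log2 ratio of 0.71 was the lowest of the block, since normal intestine was already at 1.61 ± 0.576 rpm (SD, n = 6) against 2.66 ± 0.0356 rpm (SD, n = 5). With 35 CpG sites this window had the highest signal of all 17, and it was the highest of the block in each of the 11 samples.

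In window 4, chr13:72768501-72769000, the values were 1.29, 1.48 and 1.38 rpm in B6, 0.85, 0.33 and 1.5 rpm in APCMin normal intestine and 2.03, 2.29, 2.21, 2.5 and 2.66 rpm in adenoma. The lowest adenoma stood 0.53 rpm above the highest normal sample, the widest gap of the 17 windows. Window 5, chr13:72768751-72769250, holds 48 CpG sites, the most of the members, and overlaps the printed stretch. There B6 had 0.97, 1.16 and 0.97 rpm, APCMin normal intestine 0.72, 0.24 and 1.44 rpm, and adenoma 1.98, 2.01, 1.71, 2.16 and 2.35 rpm. The tissues did not overlap, and the log2 ratio was 1.11, above the 1.01 of window 4.

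Window 6, chr13:72769001-72769500, had 0.85, 0.87 and 0.57 rpm in B6, 0.75, 0.13 and 1.1 rpm in APCMin normal intestine and 1.59, 1.43, 1.20, 1.78 and 1.98 rpm in adenoma, a log2 ratio of 1.11. In window 7, chr13:72769251-72769750, B6 had 0.54, 0.48 and 0.30 rpm, APCMin normal intestine 0.36, 0.04 and 0.56 rpm and adenoma 0.72, 0.78, 0.57, 0.93 and 1.11 rpm. The block thus ended with 0.822 rpm in adenoma against 2.66 rpm at its start, while the log2 ratio at the end, 1.02, was larger than at the start. In window 7 Ad5 exceeded N6 by only 0.01 rpm, the smallest step of the deposited values, so that the separation of the tissues rests on that step.

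The other 2 regions of *Irx2* were single windows with lower CpG content and small ratios. Window 1, chr13:72763001-72763500, lies upstream of the start, at -3244 to -2745 bp, and holds 8 CpG sites. B6 had 0.37, 0.51 and 0.45 rpm there, APCMin normal intestine 0.37, 0.26 and 0.36 rpm, and adenoma 0.60, 0.82, 0.61, 0.51 and 0.47 rpm. Ad7 lay below B2 and Ad6 was level with it, so the tissues overlapped. Window 2, chr13:72767501-72768000, lies in the intron upstream of the block and holds 14 CpG sites. Its values were 0.48, 0.69 and 0.64 rpm in B6, 0.40, 0.26 and 0.59 rpm in APCMin normal intestine and 0.70, 0.76, 0.69, 0.73 and 0.74 rpm in adenoma, with Ad5 level with B2. Their log2 ratios were 0.58 and 0.47, close to the median of all hypermethylated windows, 0.56.

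*Onecut3* (ENSMUSG00000045518, chr10:79957651-79980003, plus strand) had the largest ratio of the 3 genes, and the place where it arose was nearly free of signal in normal intestine. Its 7 windows form 3 regions far apart, 2 in the long intron and the third at the last exon. The first region, chr10:79965251-79966250, lies 7600 to 8599 bp downstream of the start, is 1000 bp long and holds 35 CpG sites, of which 24 fall in its middle window.

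In that middle window, chr10:79965501-79966000, B6 had 0.05, 0.07 and 0.06 rpm, APCMin normal intestine 0.01, 0.01 and 0.01 rpm, and adenoma 0.51, 0.93, 0.90, 0.47 and 0.56 rpm. Every adenoma was thus several times higher than every normal sample, and the gap between the tissues was 0.40 rpm. Summed over libraries, these levels stand for about 102 fragments in adenoma and 7 in normal intestine. The depth-scaled ratio was 20.2, with an exact 95% counting interval of 9.45 to 51.5. This interval treats fragments as independent and leaves out the spread between animals. It is no test, since the same contrast chose the window. The log2 ratio was 3.09.

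Window 1, chr10:79965251-79965750, had 0.03, 0.09 and 0.05 rpm in B6, 0.02, 0.02 and 0.07 rpm in APCMin normal intestine and 0.38, 0.50, 0.53, 0.37 and 0.33 rpm in adenoma. For window 3, chr10:79965751-79966250, the values were 0.09, 0.07 and 0.07 rpm in B6, 0.05, 0.05 and 0.01 rpm in APCMin normal intestine and 0.38, 0.72, 0.64, 0.21 and 0.43 rpm in adenoma. In both windows the tissues were apart, and Ad6 came closest to normal intestine in window 3. Input DNA, sequenced without enrichment, gave 0.28, 0.37 and 0.34 rpm in B3, N4 and Ad7 at window 1, so that MeDIP of Ad7 there, 0.33 rpm, was no higher than its own input. The depth-scaled ratios of windows 1 and 3 were 9.0, with a counting interval of 4.6 to 19.6, and 8.19, with an interval of 4.41 to 16.6. These intervals have the same limits as that of the middle window. All 5 adenomas had their highest value of this region in the middle window, whereas no normal sample had it there. At most 3.21 fragments stood behind any normal value in these 3 windows, so that differences between normal samples were not measurable at this depth. Over the whole region the log2 ratio of 2.66 was reached or passed by 3 of 5135 hypermethylated regions, this one included, and it depends on the amount added before the logarithm. With 0.5 rpm added it was 0.90 and with 0.01 rpm 3.42.

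The second region of *Onecut3*, chr10:79972751-79973500 in the same intron, holds 15 CpG sites and hardly any island sequence. In window 4, chr10:79972751-79973250, B6 had 0.26, 0.42 and 0.45 rpm, APCMin normal intestine 0.36, 0.37 and 0.36 rpm, and adenoma 0.71, 0.57, 0.58, 0.68 and 0.56 rpm. In window 5, chr10:79973001-79973500, the values were 0.55, 0.82 and 1.03 rpm, then 0.60, 0.68 and 0.81 rpm, and 1.29, 1.13, 1.01, 1.11 and 1.03 rpm. The tissues were apart in window 4 but overlapped in window 5, where B3 reached Ad7 and passed Ad5. The log2 ratio over this region was 0.59, and its normal level of 0.560 ± 0.115 rpm (SD, n = 6) was far above that of the first region.

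The third region, chr10:79976501-79977250, begins at the end of the intron and runs over the coding part of the last exon into the untranslated region. Window 6, chr10:79976501-79977000, had 0.70, 0.54 and 0.42 rpm in B6, 0.35, 0.31 and 0.76 rpm in APCMin normal intestine and 1.25, 1.27, 1.5, 0.95 and 1.31 rpm in adenoma. Window 7, chr10:79976751-79977250, had 0.26, 0.20 and 0.15 rpm, 0.14, 0.10 and 0.32 rpm and 0.54, 0.73, 0.67, 0.65 and 0.91 rpm. The tissues were apart in both windows, by 0.19 and 0.22 rpm, and N6 was the highest normal sample in each. The log2 ratios were 1.21 and 1.61, so that the ratio was larger in the window with fewer CpG sites, 14 against 23. The neighbouring gene *Atp8b3*, which encodes a membrane transport ATPase, lies within the 3' flank of *Onecut3*, but no listed window reached it.

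*Zfp503* (ENSMUSG00000039081, chr14:22803184-22808823, minus strand) carried 1 region, chr14:22803751-22804750, at 4073 to 5072 bp from the start. It covers the 3' part of the coding sequence in the last exon and the beginning of the 3' untranslated region, holds 66 CpG sites, and 810 of its 1000 bp lie in a CpG island. Its windows are numbered along the chromosome, so that window 3 is nearest to the transcription start.

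In window 3, chr14:22804251-22804750, B6 had 0.62, 0.42 and 0.16 rpm, APCMin normal intestine 0.25, 0.11 and 0.41 rpm, and adenoma 1.02, 0.96, 1.60, 1.64 and 0.79 rpm. Window 2, chr14:22804001-22804500, had 0.43, 0.42 and 0.16 rpm, then 0.30, 0.05 and 0.46 rpm, and 1.14, 1.06, 1.86, 1.79 and 0.92 rpm. In both windows Ad5 and Ad6 stood well above the other 3 adenomas, and Ad7 was the lowest adenoma but still above every normal sample. Window 1, chr14:22803751-22804250, at the 3' end of the coding sequence, had 0.35, 0.23 and 0.09 rpm in B6, 0.19, 0.02 and 0.27 rpm in APCMin normal intestine and 0.68, 0.71, 1.19, 1.13 and 0.45 rpm in adenoma. The order of the adenomas was nearly the same there, and the tissues were 0.10 rpm apart. The log2 ratios of windows 1 to 3 were 1.87, 1.99 and 1.73, and that of the whole region, 1.89, was reached or passed by 9 of 5135 hypermethylated regions, this one included.

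Counted over the 3 genes, the lowest adenoma exceeded the highest normal sample in 14 of 17 windows, 5 of 7 at *Irx2*, 6 of 7 at *Onecut3* and 3 of 3 at *Zfp503*. Of all hypermethylated windows 43.6% were separated in this way, and since the same contrast chose the windows nothing is read from the count. Among merged regions 5 of 7 were separated, with 44.5% over all hypermethylated regions. The means of the regions, as mean ± SD over 6 normal samples and 5 adenomas, were 0.922 ± 0.406 and 2.04 ± 0.237 rpm for *Irx2* region 3, 0.0383 ± 0.0248 and 0.508 ± 0.161 rpm for *Onecut3* region 1, 0.355 ± 0.134 and 0.978 ± 0.129 rpm for *Onecut3* region 3, and 0.287 ± 0.159 and 1.20 ± 0.391 rpm for *Zfp503*. In linear terms the adenoma mean was 2.22 times the normal mean at *Irx2* region 3, 13.3 times at *Onecut3* region 1, 2.75 times at *Onecut3* region 3 and 4.19 times at *Zfp503*.

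**Figure D2:**
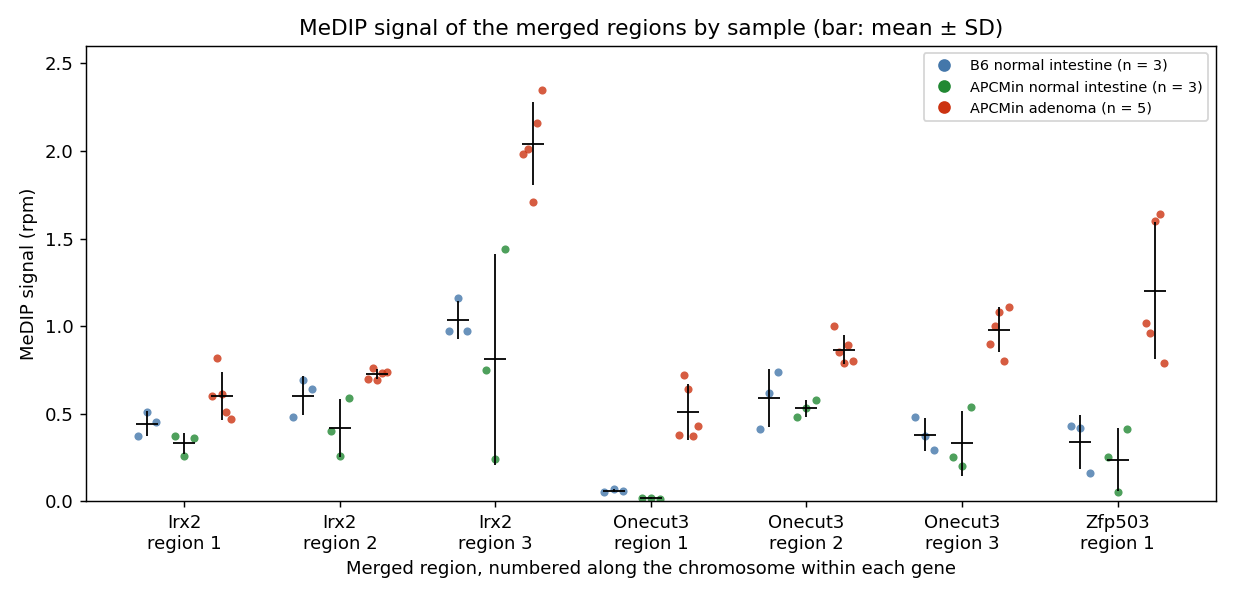
MeDIP signal in rpm (vertical axis, from 0) of every sample in the 7 merged regions (horizontal axis). Points are samples, coloured as 3 B6 normal, 3 APCMin normal and 5 adenoma samples, and crosses show mean ± SD. Onecut3 region 1 has normal samples between 0.01 and 0.07 rpm, and at Irx2 region 3 the APCMin normal samples spread from 0.24 to 1.44 rpm while the adenomas lie between 1.71 and 2.35 rpm.

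The windows with large ratios were rich in CpG sites. The 17 windows held a median of 23 CpG sites and a median GC content of 58.2%, against 8 sites and 48.4% over all 6123 hypermethylated windows. CpG island sequence was present in 15 of the 17 windows, whereas 16.5% of all hypermethylated windows held any. The 4 windows with log2 ratios under 0.7 held 8 to 14 CpG sites, and the 13 others held 14 to 48. Among those 13 the ratio did not follow the CpG count. Just above the limit *Irx2* window 3 had 0.71 with 35 sites. *Irx2* window 5 had 1.11 with 48 sites, and *Onecut3* window 7 had 1.61 with 14. The median log2 ratio of the 17 windows was 1.11, beside 0.56 over all hypermethylated windows. CpG content was not used to choose the members, but the 3 genes had been picked with earlier results in view, so these are descriptions.

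**Figure D3:**
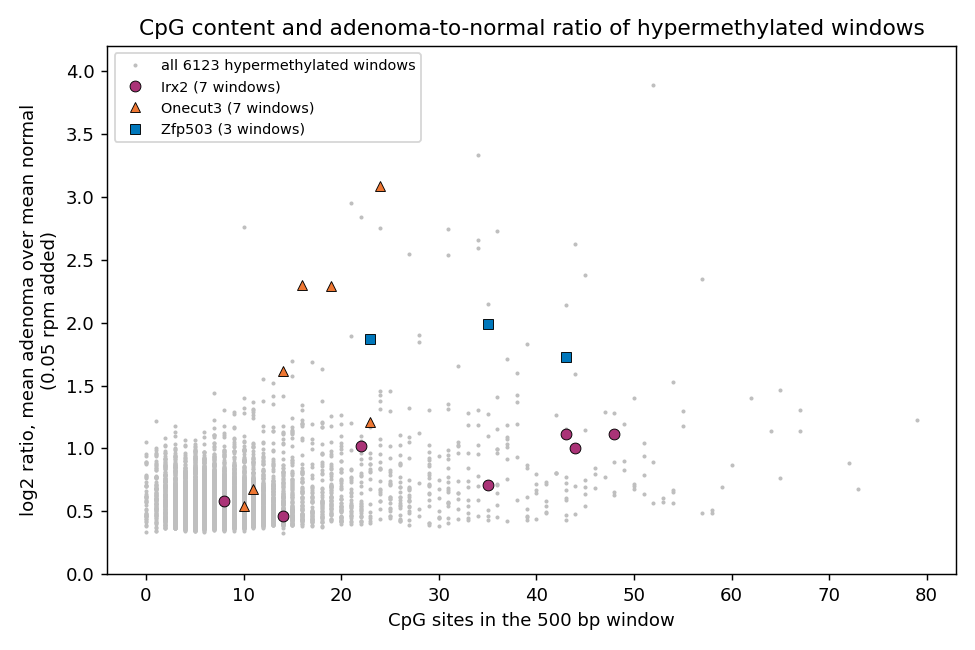
Log2 ratio of mean adenoma over mean normal signal (vertical axis, 0.05 rpm added) against the number of CpG sites (horizontal axis) in 6123 hypermethylated windows of 500 bp (grey points), with the 7 windows of Irx2, 7 of Onecut3 and 3 of Zfp503 marked. The Zfp503 windows lie between 1.73 and 1.99 at 23 to 43 CpG sites, and the Onecut3 window with 24 sites lies at 3.09.

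The normal samples of the 3 genes differed more from each other than those of most hypermethylated windows. The coefficient of variation over the 6 normal samples had a median of 44.6% in the 17 windows and of 22.3% in all hypermethylated windows. These coefficients include counting error, which was large at *Onecut3* windows 1 to 3, with at most 3.21 fragments in a normal library. N5 was the lowest normal sample, or tied for it, in 14 of the 17 windows, and in 24.4% of all hypermethylated windows. Many of the 14 overlap, and at *Onecut3* windows 1 and 2 N5 was tied at about 0.88 and 0.44 fragments. Its median log2 difference from the other 5 normal samples was -0.95 in the 17 windows and -0.02 over all hypermethylated windows, so the low values of N5 did not extend over the list as a whole. At *Irx2* window 6, for example, N5 had 0.13 rpm where the other 5 normal samples had 0.57 to 1.1 rpm. N5 was the most deeply sequenced library, and it shared its library code with N6, the highest normal sample in 7 of the 17 windows. The part of depth in these values was not tested. Without N5 the log2 ratio of *Irx2* region 3 was 0.92 in place of 1.11 and that of *Zfp503* 1.71 in place of 1.89.

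The adenomas were ordered differently at each gene. At *Irx2* region 3 Ad7 was highest with 2.35 rpm and Ad5 lowest with 1.71 rpm. At *Zfp503* Ad6 and Ad5 were highest with 1.64 and 1.60 rpm and Ad7 was lowest with 0.79 rpm. At *Onecut3* region 1 Ad4-1 and Ad5 led with 0.72 and 0.64 rpm, and Ad6 was lowest with 0.37 rpm. No adenoma was highest at all 3 genes. Ad7 was the least deeply sequenced MeDIP library, and the part of depth in this order was not tested. The 2 adenomas of animal 4 were close to each other at *Irx2* region 3, with 1.98 and 2.01 rpm, and at *Zfp503*, with 1.02 and 0.96 rpm, but differed at *Onecut3* region 1, with 0.38 and 0.72 rpm. In a single 500 bp window at the level of this region, counting error alone gives a coefficient of variation of about 26.5%. Measured over the 5 adenomas it was 31.7%. At *Zfp503* the measured value was 32.5%, beside 17.7% from counting in a single window. At *Irx2* region 3 it was 11.6%, beside 12.8%. The region values are medians of several overlapping windows, for which no counting error was computed, so the 2 kinds of value are not like for like.

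Matched tissue of the same animal showed the same direction throughout, in libraries that had also been used to list the regions. The direction is therefore a description, and nothing is read from it. In animals 4, 5 and 6 each of the 4 adenomas was higher than the normal intestine of its animal in all 7 regions. At *Zfp503* the log2 ratios within animals ran from 1.75 to 4.04 and averaged 2.38, with the largest in animal 5, where normal intestine had 0.05 rpm and adenoma 1.60 rpm. At *Irx2* region 3 they ran from 0.57 in animal 6 to 2.6 in animal 5. That range came mainly from the normal side, with 0.24 rpm in N5 and 1.44 rpm in N6, while Ad5 and Ad6 had 1.71 and 2.16 rpm. At *Onecut3* region 1 they ran from 2.62 to 3.46 and at region 3 from 0.53 to 2.18.

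**Figure D4:**
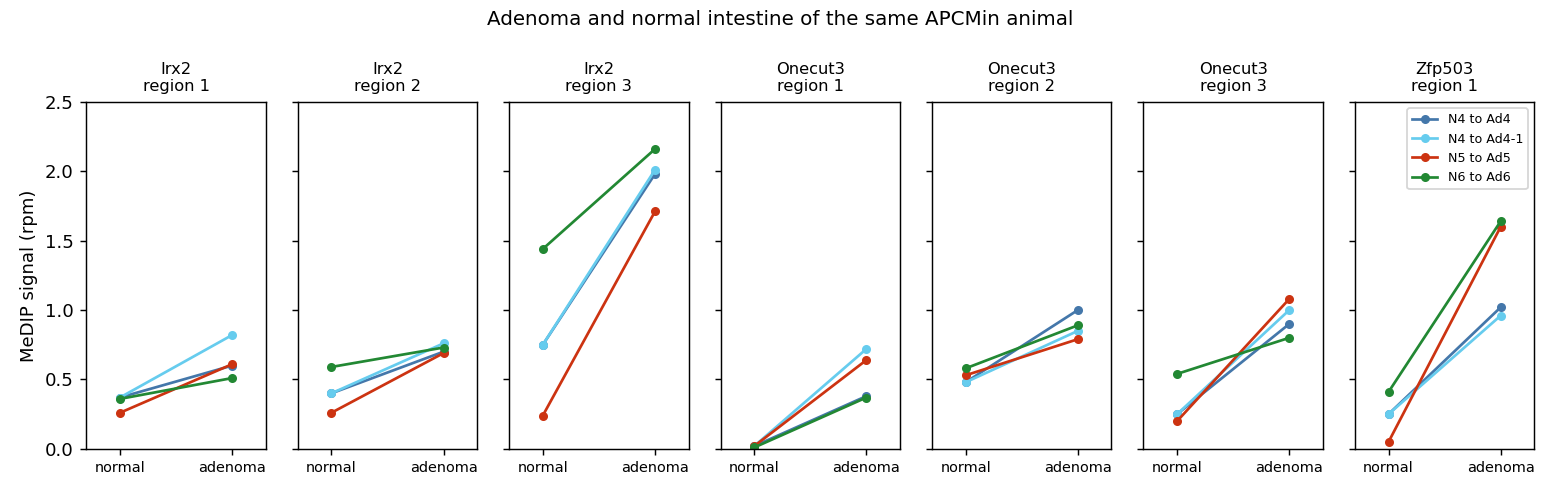
MeDIP signal in rpm (vertical axis, from 0) in normal intestine and adenoma of the same APCMin animal, with 1 panel for each of the 7 merged regions and 1 line for each of 4 adenomas (Ad4 and Ad4-1 share normal sample N4). All lines rise, in libraries that had also been used to list the regions, and at Irx2 region 3 the normal ends spread from 0.24 to 1.44 rpm.

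Normal intestine of APCMin and B6 mice was also compared, a contrast that had not itself been used to list the windows. The listing pooled both groups as normal intestine, so windows where they differ strongly may have been left out. N5 and N6 share a library code that no B6 sample has, so genotype and library code cannot be fully told apart. APCMin normal intestine had the lower mean in 17 of 17 windows, where 53.0% of all hypermethylated windows had it lower. Many of the 17 windows overlap, so they do not count as independent. None of the 17 windows passed the test across all 17690 listed windows, which was limma on log2 values with Benjamini-Hochberg adjustment. None of the 17690 windows passed it either, with 826 (4.67%) at an unadjusted p under 0.05, among them 5 of the 17. That count of members was 12 without N6 and 2 without N5 or without B2, and 3 with 0.5 rpm added, with low windows left out or with a variance trend. The lowest adjusted p of the 17 windows was 0.859, at *Onecut3* window 2, with 0.010 rpm in APCMin and 0.060 rpm in B6 and a log2 difference of -0.87 ± 0.19 (SE), where every normal library held fewer than 3 fragments. At *Irx2* window 4 the means were 0.893 and 1.38 rpm and the log2 difference -0.82 ± 0.35 (SE), with an adjusted p of 1.00 by limma. Without N5 the APCMin mean was lower in 12 of 17 windows.

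For the merged regions the exact two-sided permutation test of mean rpm, 3 against 3, cannot give a p below 0.1. It gave 0.1 at *Onecut3* region 1, 0.2 at *Irx2* regions 1 and 2 and 0.5 to 0.7 at the other 4 regions, and adjusted exact p-values over the 7 regions of 0.467 to 0.7. The differences of APCMin minus B6 normal intestine were -0.22 rpm at *Irx2* region 3, with SDs of 0.602 and 0.110 rpm, and -0.10 rpm at *Zfp503*, with SDs of 0.180 and 0.153 rpm. Both were smaller than the spread of the APCMin samples. With the 2 normal groups taken as separate controls, the log2 ratio of adenoma was 1.28 over APCMin and 0.95 over B6 normal intestine at *Irx2* region 3, 3.07 and 2.34 at *Onecut3* region 1, and 2.13 and 1.70 at *Zfp503*. These ratios share the adenomas.

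Relatives of the 3 genes were counted in the same way. Of 8 relatives, 3 had hypermethylated windows and 2 had hypomethylated ones. Of 22225 protein-coding genes, 15.8% had at least 1 hypermethylated window in the gene or its flanks and 20.8% at least 1 hypomethylated window. *Irx4*, the Iroquois gene of the ventricular heart muscle and the neighbour of *Irx2* in its cluster, had 5 hypermethylated windows. Its longest region, chr13:73400251-73401250, lies 2306 to 3305 bp downstream of the start, at nearly the same distance as the block of *Irx2*. There B6 had 0.49, 0.80 and 0.52 rpm, APCMin normal intestine 0.93, 0.56 and 0.82 rpm, and adenoma 1.28, 1.17, 1.04, 1.06 and 1.16 rpm, a log2 ratio of 0.69 with no overlap of tissues. N5 was not the lowest normal sample at that region.

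*Irx1*, the third Iroquois gene of the cluster, had 1 hypermethylated window, at its 3' end, with 0.585 ± 0.140 rpm in normal intestine (SD, n = 6) and 0.884 ± 0.122 rpm in adenoma (SD, n = 5). *Irx6*, in the second Iroquois cluster, had 1 window in its 3' flank, with 0.317 ± 0.0242 and 0.468 ± 0.108 rpm. No listed window fell on *Irx3*, *Irx5* or *Onecut1*. The windows of the other 2 relatives went the opposite way. At *Onecut2* the single window had 0.773 ± 0.0942 rpm in normal intestine and 0.554 ± 0.0986 rpm in adenoma, with overlap of the tissues. Upstream of *Zfp703*, the relative of *Zfp503*, the single window had 0.328 ± 0.114 rpm in normal intestine and 0.112 ± 0.0415 rpm in adenoma, with all adenomas below all normal samples.

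Among 112 other developmental regulators, mostly homeobox and T-box genes, 23 (20.5%) had a hypermethylated window and 18 (16.1%) a hypomethylated one, beside the 15.8% and 20.8% of all protein-coding genes. These genes were short, with a median of 6.25 kb against 15.5 kb over all genes. The 5 with the most hypermethylated windows were *Hoxa3* with 8, *Hoxa2* and *Hoxd3* with 6 each, and *Meis2* and *Msx1* with 5 each, where neighbouring genes can share windows. Over all protein-coding genes 1.88% had 3 or more hypermethylated windows, as each of *Irx2*, *Onecut3* and *Zfp503* had, and 18 genes (0.081%) had 7 or more, among them *Irx2* and *Onecut3*.

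The profile over the 11 samples was compared with that of the 5128 other hypermethylated regions by Pearson's r of log2 values. All these regions were listed for the same contrast and therefore correlate, with a median r of 0.61 with *Irx2* region 3, 0.75 with *Onecut3* region 1 and 0.66 with *Zfp503*. Inside protein-coding genes the regions most like *Irx2* were in *Ap1s1* (r = 0.97), which encodes an adaptor subunit of vesicle transport, in the homeobox gene *Hoxa3* (r = 0.96) and in *Lrrc16a* (r = 0.96). Those most like *Onecut3* were in *Otop2* and *Ush1g*, which overlap (r = 0.96), *Mboat2* (r = 0.96) and *Prdm16* (r = 0.95). For *Zfp503* they were in *Mgat1* (r = 0.97), *Homer2* (r = 0.97) and *Shroom3* (r = 0.96). Between the 3 genes r was 0.90 for *Irx2* with *Zfp503*, 0.83 for *Onecut3* with *Zfp503* and 0.74 for *Irx2* with *Onecut3*, each over 11 samples. These correlations describe the same libraries and the same contrast.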

How the data were processed

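MeDIP-seq values of 11 samples and input values of 3 samples were used. Per the study's methods and labels the authors used Bowtie 0.12.5 and mm9 for alignment, kept unique hits, extended reads to 300 nucleotides, and deposited rpm values with 2 decimals for 500 bp windows spaced 250 bp apart that differed between adenoma and normal intestine. Listing required a rank sum p under 0.01, a minimal ratio and a group mean over 0.25 rpm. A merged region carries the median of its windows in each sample, which held for 77 of 77 member values within 0.01 rpm. The authors' means, variances, ratios and p-values in the same tables were not used, and RNA values are not analysed here.

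Genes came from gencode vM1 on NCBIM37, the build of mm9, and 0 regions ran past a chromosome end. CpG islands were stretches of 300 bp or more with at least 50% GC whose CpG sites were at least 0.6 times as many as base composition predicts. Fragment numbers came from rpm, the number of aligned reads and 300 base fragments, taken as independent. Tools were limma 3.58.1 (R 4.3.3), numpy 2.4.6, pandas 2.3.3, scipy 1.17.1 and pysam 0.24.0, and the limma fit was tested on simulated data. The members, gene lists and tests were chosen with earlier results of these data known. All windows and regions at the 3 genes were described, with every relative that had a listed row, the 5 listed developmental regulators with the most hypermethylated windows, and the 3 most similar regions of each gene. The labels pair animals 4, 5 and 6 across tissues, and deviations from group means over 13980 regions had r of -0.054 to 0.032 within animals and -0.032 to 0.067 between animals. N4, Ad4 and Ad4-1 share a mouse, as do N5 with Ad5 and N6 with Ad6, and the other 4 samples are from 4 further mice.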

Additional observations from a re-analysis of the deposited data

How the results depend on the processing

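The log2 ratio of each of the 7 regions stayed above 0 in all 133 recomputations. The rule that listed the regions chose this direction in the same samples, so nothing is read from it. Of all 158 recomputed values, 152 moved by less than the spread between replicates or, for counts, by less than 1.5 times. That spread is the SD between single samples, so large relative shifts of small ratios stay within it. At *Irx2* region 2 the ratio of 0.47 became 0.24 over B6 and 0.73 over APCMin normal intestine alone. At *Irx2* region 1 the ratio of 0.58 became 0.31 with 0.5 rpm added. The 6 values outside these limits changed as follows. With 0.5 rpm added the ratio was 0.90 at *Onecut3* region 1, 0.37 at region 2, 0.79 at region 3 and 1.11 at *Zfp503*, and with 0.01 rpm it was 3.42 at *Onecut3* region 1. By construction a larger amount added lowers each of these ratios. With library code 4 only (2 adenomas, 3 normal samples) it was 0.82 at *Onecut3* region 2, and the cause was not tested. Leaving out 1 sample at a time gave 0.45 to 0.66, 0.34 to 0.56 and 0.92 to 1.27 at *Irx2* regions 1 to 3, 2.52 to 2.77, 0.52 to 0.67 and 1.24 to 1.48 at *Onecut3* regions 1 to 3, and 1.71 to 2.02 at *Zfp503*. The count of separated windows was 14 to 16, with 14 against B6 and 17 against APCMin normal samples only. With the animal as a replicate block (7 samples) the ratios were 0.80, 0.78 and 1.49 at *Irx2*, 3.05, 0.68 and 1.5 at *Onecut3* and 2.49 at *Zfp503*, and without the animal term 0.84, 0.78, 1.52, 3.07, 0.68, 1.48 and 2.46. The block therefore hardly moved them. The members numbered 16 in gene bodies only, 17 with flanks of 5000 bp and 20 with 20000 bp. No window passed in APCMin against B6 normal intestine under any limma setting (0 to 0 when 1 sample was left out), with 644 to 1034 windows at an unadjusted p under 0.05. Depth limits the normal values at *Onecut3* region 1.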

Other observations

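Window 3 of *Irx2* stood out for how close its adenoma values were. Its 5 values spanned 2.62 to 2.71 rpm, a coefficient of variation of 1.34%, below the 11.2% that counting error alone would give and lower than in all but 0.0163% of the hypermethylated windows. The normal samples of the same window had 35.9%. The neighbouring window 4, which shares sequence with it, had 10.6% over the adenomas, so such close values did not extend along the block. Window 2 of *Irx2* was similar, with 3.98% measured and 21.5% from counting. A spread below counting error gives no measure of how alike the adenomas themselves were.

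At the other end, the adenomas of *Zfp503* window 1 varied by 38.0%, with 21.9% from counting, and those of *Onecut3* window 3 by 43.1%, with 28.7% from counting. Ad7, the lowest adenoma in all windows of *Zfp503*, was the highest in windows 3 to 7 of *Irx2*. Ad7 was the least deeply sequenced MeDIP library, with 13878615 reads, and no other MeDIP sample had its library code. The part of depth and library code in its values was not tested.

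Input DNA, sequenced without enrichment in B3, N4 and Ad7, gave 0 to 0.47 rpm in the 17 windows. The highest was 0.47 rpm in Ad7 at *Irx2* window 1, about 4.65 fragments, where B3 and N4 had 0.19 and 0.17 rpm, and MeDIP of Ad7 had the same 0.47 rpm. At *Zfp503* window 1 input of Ad7 had 0.44 rpm, about 4.35 fragments, beside 0.00 rpm in B3 and 0.08 rpm in N4, and MeDIP of the same adenoma had 0.45 rpm there, the lowest adenoma value of that window. At the other members input of Ad7 reached at most 0.37 rpm. At *Onecut3* window 1 input gave 0.28, 0.37 and 0.34 rpm in B3, N4 and Ad7, where MeDIP had 0.02 to 0.09 rpm in the normal samples and 0.33 to 0.53 rpm in the adenomas. At *Onecut3* window 2 input gave 0.28, 0.27 and 0.15 rpm in B3, N4 and Ad7, more than the 0.01 to 0.07 rpm of MeDIP in the normal samples. With at most 5931425 aligned reads in an input library, no difference between input libraries was measurable at this depth.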
